A study of Mus musculus with 6 samples.

Results

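The clustered protocadherin genes were examined in ATAC-seq peak lists of mouse hematopoietic stem cells. ATAC-seq uses the Tn5 transposase to cut and tag open chromatin, and a peak is a stretch where cuts pile up above the background. Members were the genes of the RefSeq table for the mouse build mm10 that lie on chromosome 18 and whose symbols start with Pcdha, Pcdhb, Pcdhga, Pcdhgb or Pcdhgc. The rule gave 58 of 49550 genes, with 14 in the alpha, 22 in the beta and 22 in the gamma sub-cluster. All peaks from 50 kb below the first member to 50 kb above the last were used, an interval that runs from 36880285 to 37891873 (1-based).

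Clustered protocadherins are adhesion proteins of the cell surface, best known from neurons, where the set of isoforms on a cell gives it an identity that its own branches recognise. Each alpha and gamma gene is a variable first exon with a promoter of its own that is spliced to constant exons shared by its sub-cluster, whereas each beta gene is a single coding exon. In neurons the alternate isoforms are chosen by chance in each cell, through promoters and distant enhancers that bind CTCF and cohesin, while the C-type isoforms at the far end of the alpha and gamma arrays are used more evenly.

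There were 3 libraries labelled Dek_cKO, from C57BL/6 mice with genotype Dekfl/fl,Tie2-Cre, and 3 labelled Dek_fl, from Dekfl/fl mice without the transgene. Both groups carry the floxed Dek alleles, were 3 months old and in the homeostatic state, and gave bone marrow cells sorted as Lin-Sca-1+c-Kit+CD48-CD150+. The product of Dek is a nuclear protein bound to chromatin. Tie2-Cre uses control DNA of the Tek gene, which is active in blood and endothelial lineages, so the recombination is not limited to stem cells. The labels give 3 libraries a group, although the design text speaks of duplicates, and they do not say whether libraries came from separate animals, so p-values measure only the spread between these libraries. Libraries are named here by label and number, as Dek_cKO 1 to 3 and Dek_fl 1 to 3.

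Several properties of the lists bear on every value below. On chromosomes 1 to 19 and X they held 70731, 73160 and 27167 peaks in Dek_cKO 1, 2 and 3 and 52434, 71547 and 23809 peaks in Dek_fl 1, 2 and 3, and the read depth behind them is unknown. Replicates 1 and 2 of both groups were scored by q-value and both replicate 3 lists by p-value, with another lower limit, so replicate 3 is a separate processing batch. The labels were checked at Tek, the gene whose control DNA drives the transgene. The peak at its lower end had a −log10 p of 32.9, 20.5 and 8.59 in the libraries labelled Dek_cKO and of 260, 576 and 56.6 in those labelled Dek_fl, and a peak in the gene body was called in the 3 Dek_fl libraries alone. The stronger Tek peaks thus lay in the libraries whose labels name no transgene, and each direction given here is between libraries as labelled. Whether the labels were exchanged was not tested, and an exchange would turn every direction below round. An end of Dek itself was called in all 6 libraries, but which part is floxed is not stated in the sources used here, and the call checks nothing.

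Over the interval, the lists held 34, 37 and 8 peaks in Dek_cKO 1, 2 and 3, against 21, 28 and 8 peaks in Dek_fl 1, 2 and 3. The groups overlapped, and replicate 3 stood apart with the same low count under both labels. The means were 26.3 ± 15.9 peaks in the Dek_cKO libraries and 19 ± 10.1 in the Dek_fl libraries (SD, n = 3 each), a difference of 7.33 that did not exceed the spread (two-sided exact permutation test, p = 0.60; 3 against 3 libraries allow no p below 0.1). Because the lists differ in length, the counts were also set against it: the interval held 4.81, 5.06 and 2.94 of every 10000 peaks of the Dek_cKO lists, against 4.01, 3.91 and 3.36 of every 10000 of the Dek_fl lists (difference 0.510, exact p = 0.50). That difference ranged from 0.116 without Dek_cKO 2 to 1.17 without Dek_cKO 3, where the groups no longer overlapped (exact p = 0.1, the smallest that 2 against 3 libraries allow). Leaving out a single replicate 3 library keeps that batch under 1 label only. In such a setting label and batch cannot be told apart, here and below. Covered length was 31082, 30340 and 4238 bp in Dek_cKO 1, 2 and 3, against 17031, 26092 and 4938 bp in Dek_fl 1, 2 and 3 (exact p = 0.60). The difference in peak number ranged from 1.83 without Dek_fl 3 to 16.5 without Dek_cKO 3. It was 11.0 within replicates 1 and 2, and in replicate 3 both libraries had 8 peaks.

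**Figure D1:**
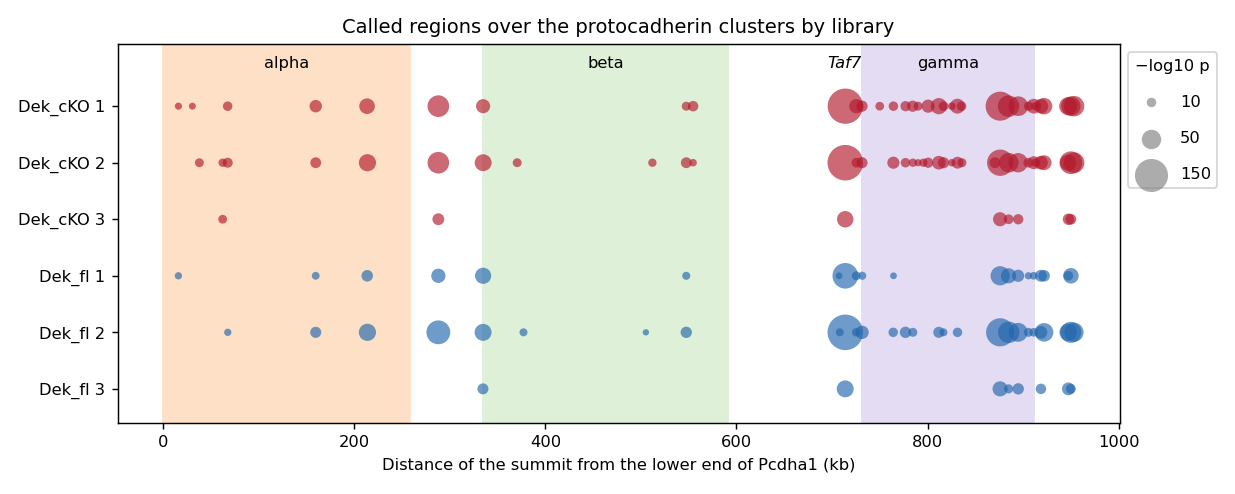
Peaks over the protocadherin interval. Each row is a library, the x axis gives the distance of a called region's summit from the lower end of Pcdha1 in kb, circle area grows with the −log10 p in that library, and shading marks the alpha, beta and gamma sub-clusters. The same few strong regions recur down the rows, at Taf7, at the C-type end of gamma and between alpha and beta, while the small circles along the gamma array are mostly in Dek_cKO 1, Dek_cKO 2 and Dek_fl 2.

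Merging the peaks of the 6 lists gave 44 regions in the interval. Of these, 29 lay at an end of a single member, 2 at the upper end that the gamma genes share, 3 elsewhere inside gamma and 2 between sub-clusters. The other 8 belonged to neighbouring genes. Only 6 of the 44 regions (13.6%) were called in all 6 libraries, against 23.3% of the regions of the genome, and 11 in a single library. The median fold of the interval's peaks stood at the 46.3, 42.6 and 29.0 percentile of the whole list in Dek_cKO 1, 2 and 3 and at the 35.9, 46.9 and 39.4 percentile in Dek_fl 1, 2 and 3. The median peak of the interval thus lay below the middle of each list by fold, the authors' measure of the summit over the local background. Folds are set side by side below to describe peaks, not to compare levels between lists. The median fold of the whole list was 5.05, 5.32 and 8.31 in Dek_cKO 1, 2 and 3, against 4.40, 4.56 and 7.85 in Dek_fl 1, 2 and 3. A higher fold under the Dek_cKO label is therefore no difference particular to a region. Ranks over the shared regions and percentiles within a list are given beside it. A percentile still depends on the length and lower limit of its list, which differ here, so it is not a level either. At Pcdhgc4 the difference in mean percentile was 0.224 in the deposited lists and -6.04 with all lists cut to 1 length.

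Among the 3 sub-clusters, gamma held the most peaks in each library. Gamma had 16, 17 and 3 peaks in Dek_cKO 1, 2 and 3, against 7, 12 and 3 in Dek_fl 1, 2 and 3 (difference 4.67, exact p = 0.50). Alpha had 5, 5 and 1 in Dek_cKO libraries, against 4, 3 and 0 in Dek_fl libraries (difference 1.33, exact p = 0.50), and beta had 3, 5 and 0 in Dek_cKO libraries, against 2, 4 and 1 in Dek_fl libraries (difference 0.333, exact p = 1.0). None of the 3 sub-clusters separated the groups. The gamma difference ranged from 2.17 without Dek_cKO 2 to 9.17 without Dek_cKO 3, and the alpha difference from 0.167 without Dek_fl 3 to 2.67 without Dek_cKO 3. The rest of the interval had 10, 10 and 4 peaks in Dek_cKO libraries, against 8, 9 and 4 in Dek_fl libraries (exact p = 0.60). Adjusted over these 4 tests the p-values were 0.80 for alpha, gamma and the rest and 1.0 for beta. The density also differed along the chromosome: gamma is 180.1 kb long, against 258.6 kb for alpha and 256.4 kb for beta.

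**Figure D2:**
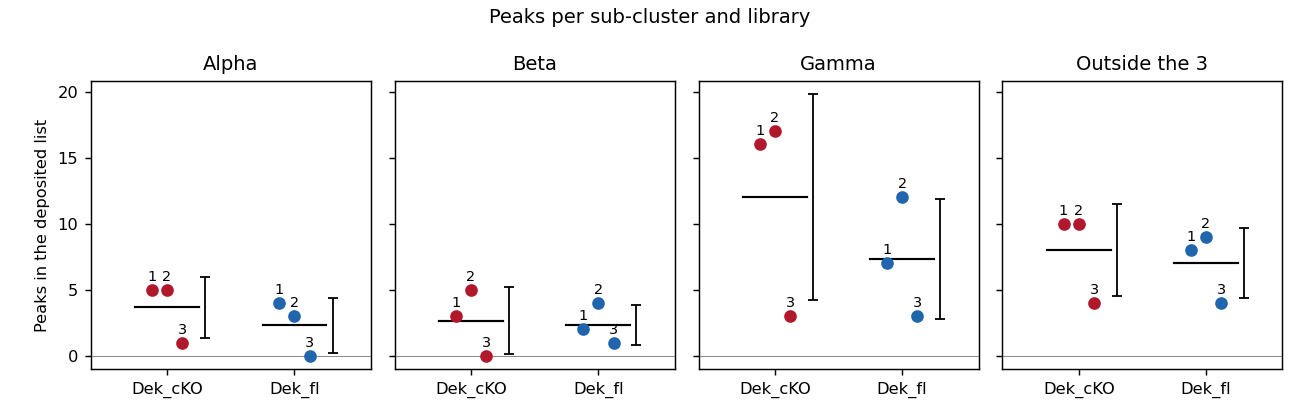
Peaks per sub-cluster. Each point is a library with its replicate number, the horizontal line is the group mean, the bar beside it is ± 1 SD (n = 3 each), and the y axis counts peaks in the deposited list. In gamma the counts are 16, 17 and 3 in Dek_cKO libraries and 7, 12 and 3 in Dek_fl libraries, and in all 4 panels the groups overlap.

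A member was counted as called when a peak lay within 1 kb of an annotated end that it does not share with another member. Alpha and gamma genes share their upper end, where the constant exons lie, so for them only the lower end counts, which is where the variable exon begins. Called members numbered 22, 24 and 3 in Dek_cKO 1, 2 and 3, against 9, 16 and 3 in Dek_fl 1, 2 and 3. As shares of the 58 members these are 37.9%, 41.4% and 5.17% in Dek_cKO libraries, against 15.5%, 27.6% and 5.17% in Dek_fl libraries. Among all 21627 protein-coding genes the shares with a peak at an end were 67.4%, 67.6% and 52.0% in Dek_cKO 1, 2 and 3 and 63.6%, 67.7% and 51.4% in Dek_fl 1, 2 and 3, so the members' share lay below the background in each of the 6 libraries. For alpha and gamma members a single end was counted, and for other genes both ends. The difference between the groups, 7 members, did not exceed the spread (16.3 ± 11.6 members in Dek_cKO libraries and 9.33 ± 6.51 in Dek_fl libraries, SD, n = 3 each, exact p = 0.50). It ranged from 3.17 without Dek_cKO 2 to 13.7 without Dek_cKO 3, was 10.5 within replicates 1 and 2, and was 0 within replicate 3.

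Across libraries, 29 of the 58 members (50%) were called at least once, against 69.7% of protein-coding genes. Only 2 members were called in all 6 libraries, whereas 48.8% of protein-coding genes were. Members called in some libraries but not in others were 27 (46.6%), against 21.0% of protein-coding genes, a larger share than the background. All 77 member peaks lay at the lower end, including those of the beta genes, whose ends are both their own. Summits were close to that end: the median lay 9 bp inside the gene, 63 of 77 summits lay within 200 bp and 74 within 500 bp. The strand is not given in the gene table, so the lower end is called a start only for alpha and gamma, from the textbook order of variable and constant exons.

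**Figure D3:**
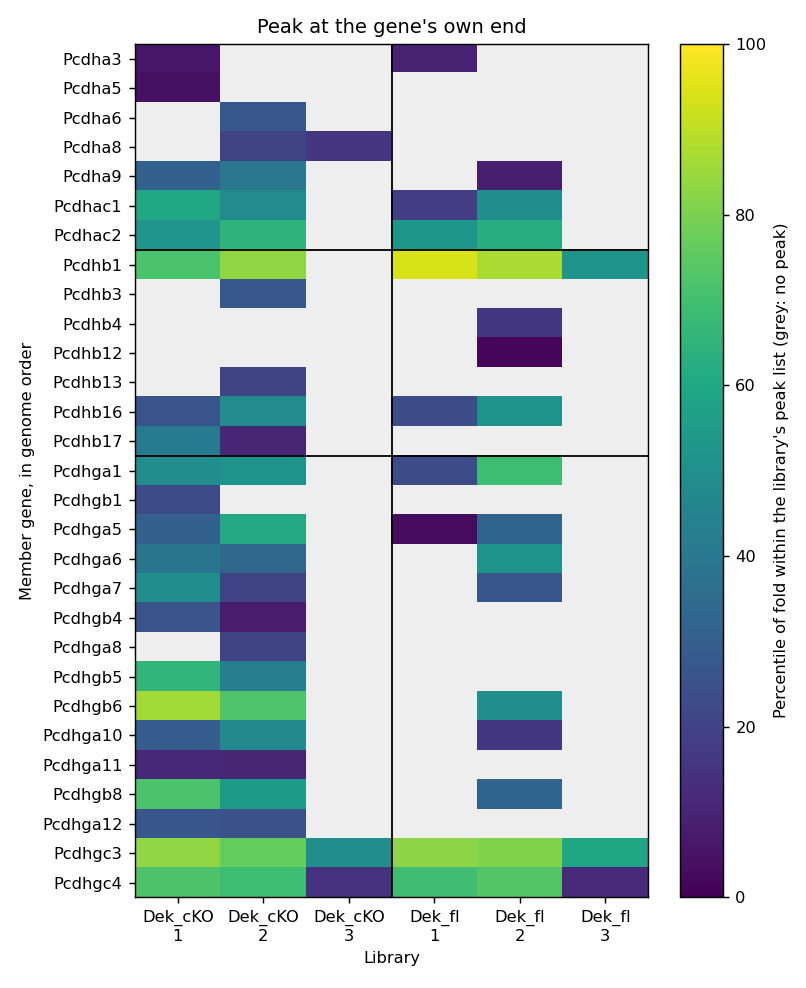
Members with a peak at their own end. Rows are the 29 members called at least once, in genome order with lines between alpha, beta and gamma, columns are libraries, and colour gives the percentile of the peak's fold within its library's list (grey where no peak was called). Pcdhgc3 and Pcdhgc4 fill all 6 columns, the alternate gamma genes fill mostly the columns of Dek_cKO 1, Dek_cKO 2 and Dek_fl 2, and the replicate 3 columns are nearly empty.

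Of the 3 kinds of member, the C-type genes had the largest share of calls. These 5 genes (Pcdhac1, Pcdhac2, Pcdhgc3, Pcdhgc4 and Pcdhgc5) were called in 20 of 30 combinations of gene and library (66.7%), the 31 alternate genes in 42 of 186 (22.6%) and the 22 beta genes in 15 of 132 (11.4%). These combinations share libraries and are not replicates, so the shares carry no test. The C-type share lies within the 51.4% to 67.7% of protein-coding genes called per library, so it is no more than the ordinary share of a gene, and the other kinds lie below that range. The median percentile of fold was 61.1 for C-type, 30.2 for alternate and 41.5 for beta peaks, and the C-type peaks were also the widest, with a median of 1610 bp against 584.5 bp for alternate and 528 bp for beta peaks.

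Pcdhgc3 (gene ID 93706) had the member peaks with the highest single fold and the highest −log10 p. The region, from 37805707 to 37808571, had folds of 7.76, 7.53 and 8.24 in Dek_cKO 1, 2 and 3, against 6.55, 6.66 and 8.60 in Dek_fl 1, 2 and 3. Its −log10 p was 115, 93.9 and 25.04 in Dek_cKO libraries, against 49.1, 108 and 29.1 in Dek_fl libraries. Within the lists its fold stood at the 83.3, 76.3 and 49.2 percentile in Dek_cKO libraries, against 82.8, 81.0 and 59.0 in Dek_fl libraries. The groups overlapped, and the values of the shorter replicate 3 lists were the lowest under both labels. With all lists cut to the length of the shortest, the mean percentiles were 42.8 in Dek_cKO and 56.2 in Dek_fl libraries (exact p = 0.20). In 4 of the 6 libraries the peak was over 2 kb wide, with 2313 and 2579 bp in Dek_cKO 1 and 2 and 2317 and 2389 bp in Dek_fl 1 and 2.

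Pcdhgc4 (gene ID 93707), the next gene, was also called in all 6 libraries. Folds at its lower end, from 37814121 to 37816109, were 6.65, 6.79 and 5.61 in Dek_cKO 1, 2 and 3, against 5.47, 6.06 and 5.14 in Dek_fl 1, 2 and 3. The percentiles were 71.9, 68.8 and 14.5 in Dek_cKO libraries, against 69.4, 73.3 and 11.9 in Dek_fl libraries. Again the values of the shorter replicate 3 lists were low under both labels. Pcdhgc5, the last C-type gene, had no peak within 1 kb of its lower end in any library. A region whose summit lay 5.61 kb above that end (37824897 to 37826023), within the span that all gamma genes share, was called in all 6 libraries, with folds of 7.57, 8.12 and 6.78 in Dek_cKO libraries, against 5.24, 6.33 and 7.08 in Dek_fl libraries.

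The alpha C-type genes were called in replicates 1 and 2 of both groups and in neither replicate 3 library. Pcdhac1 (37089563 to 37090751) had folds of 5.73 and 5.18 in Dek_cKO 1 and 2, against 3.15 and 4.52 in Dek_fl 1 and 2. Pcdhac2 (37142281 to 37144866) had folds of 5.19 and 6.45 in Dek_cKO 1 and 2, against 4.54 and 5.29 in Dek_fl 1 and 2. By percentile within the lists the groups overlapped at both genes, with 59.9 and 48.2 in Dek_cKO 1 and 2 against 18.3 and 49.2 in Dek_fl 1 and 2 at Pcdhac1, and 52.1 and 64.97 in Dek_cKO 1 and 2 against 53.1 and 62.2 in Dek_fl 1 and 2 at Pcdhac2.

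Regions called in all 6 libraries allow a test of rank. Within each library the 19683 regions of the genome shared by all 6 lists were ranked by fold, converted to normal scores and tested with limma. None was called, with 0.0% higher and 0.0% lower in the Dek_cKO libraries at an adjusted p under 0.05 (68 and 19 regions at an unadjusted p under 0.05, and 1 and 0 called by limma with a replicate block). The score differed (Dek_cKO minus Dek_fl) by -0.235 at Pcdhgc3 (SE 0.301), by -0.0578 at Pcdhgc4 (SE 0.450) and by 0.111 at the region above the lower end of Pcdhgc5 (SE 0.362), each with an adjusted p of 1.0 by limma. Without Dek_cKO 1 the difference at Pcdhgc3 was -0.405 and the groups did not overlap (limma adjusted p = 1.0). In that setting 981 of the 19683 regions had all Dek_cKO scores below all Dek_fl scores. Without Dek_cKO 3 the difference above the lower end of Pcdhgc5 was 0.436, with all Dek_cKO scores above all Dek_fl scores. That held for 1667 of the 19683 regions in that setting. None of these or of the other 3 shared regions of the interval had an unadjusted p under 0.05. With no library left out, the scores of the groups overlapped at all 6. In that setting 2.1% of shared regions had all Dek_cKO scores above all Dek_fl scores and 2.27% the reverse.

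**Figure D4:**
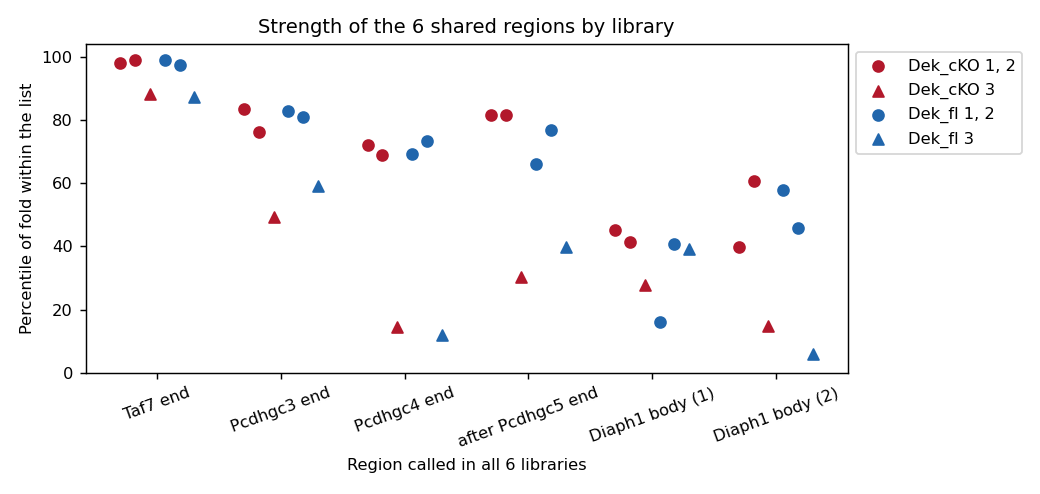
Strength of the 6 regions called in every library. The y axis is the percentile of fold within the library's list, circles are replicates 1 and 2 and triangles replicate 3, with the Dek_cKO libraries left of the Dek_fl libraries at each region. The Taf7 end stays between 87.2 and 98.9 in all libraries, and the protocadherin regions fall in both replicate 3 libraries, to 14.5 in Dek_cKO 3 and 11.9 in Dek_fl 3 at Pcdhgc4.

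The alternate gamma genes were where the libraries differed most. Of these 19 genes, 12, 12 and 0 were called in Dek_cKO 1, 2 and 3, against 2, 7 and 0 in Dek_fl 1, 2 and 3. The means were 8 ± 6.93 in Dek_cKO libraries and 3 ± 3.61 in Dek_fl libraries (SD, n = 3 each). The difference of 5 genes did not exceed the spread (exact p = 0.40). Without single libraries it ranged from 3 (without Dek_cKO 1 or Dek_cKO 2) to 9 (without Dek_cKO 3), and it was 7.50 within replicates 1 and 2 and 0 within replicate 3, where no alternate gamma gene was called under either label.

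Among these genes, 11 were called in both Dek_cKO 1 and Dek_cKO 2. The highest by fold was Pcdhgb6, with folds of 8.08 and 7.15 in Dek_cKO 1 and 2, against no peak in Dek_fl 1 and 4.52 in Dek_fl 2; its percentiles were 86.1 and 72.4 in Dek_cKO 1 and 2, against 49.2 in Dek_fl 2. Pcdhgb8, which the table lists as a transcribed pseudogene, had folds of 6.62 and 5.63 in Dek_cKO 1 and 2, against 3.66 in Dek_fl 2. Pcdhga10 had 3.83 and 5.13 in Dek_cKO 1 and 2, against 2.93 in Dek_fl 2. At these 3 genes both Dek_cKO percentiles lay above that of Dek_fl 2. Of the 7 alternate gamma genes called in all 3 of these libraries, 2 went the other way.

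These were Pcdhga1 and Pcdhga6. Pcdhga1 had folds of 4.99 and 5.36 in Dek_cKO 1 and 2, against 3.32 and 5.74 in Dek_fl 1 and 2, and percentiles of 49.0 and 50.9 in Dek_cKO 1 and 2, against 22.8 and 69.1 in Dek_fl 1 and 2. Pcdhga6 had folds of 4.41 and 4.29 in Dek_cKO 1 and 2, against 4.64 in Dek_fl 2. At both genes Dek_fl 2 stood above Dek_cKO 1 and 2 by percentile. Pcdhga5 had folds of 3.96 and 6.08 in Dek_cKO 1 and 2, against 2.49 and 3.66 in Dek_fl 1 and 2, and Pcdhga7 had 4.99 and 3.57 in Dek_cKO 1 and 2, against 3.42 in Dek_fl 2. At these last genes the percentiles of the groups overlapped.

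A further 4 alternate gamma genes were called in Dek_cKO 1 and 2 and in no Dek_fl library. Pcdhgb5 (37730874 to 37731209) was the strongest, with folds of 6.17 and 4.82 and a −log10 p of 21.5 and 12.1 in Dek_cKO 1 and 2. Its summits lay 29 and 26 bp outside the gene's lower end. Pcdhga12 had folds of 3.73 and 3.75 in Dek_cKO 1 and 2, Pcdhgb4 had 3.67 and 2.86, and Pcdhga11 had 2.94 and 3.04. The peaks of these last 3 genes were weak, at or below the 26.7 percentile of their list by fold. Pcdhgb1 was called in Dek_cKO 1 alone (fold 3.52) and Pcdhga8 in Dek_cKO 2 alone (fold 3.57). The 6 alternate gamma genes never called were Pcdhga2, Pcdhga3, Pcdhga4, Pcdhgb2, Pcdhga9 and Pcdhgb7.

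The alternate alpha genes had fewer and weaker peaks. Of 12 genes, 3, 3 and 1 were called in Dek_cKO 1, 2 and 3, against 1, 1 and 0 in Dek_fl 1, 2 and 3 (difference 1.67, exact p = 0.30). Pcdha9 had folds of 3.96 and 4.65 in Dek_cKO 1 and 2, against 2.56 in Dek_fl 2. Pcdha8 was called in Dek_cKO 2 (fold 3.57) and Dek_cKO 3 (fold 5.69) and in no Dek_fl library, and it was the only alternate member with a peak in a replicate 3 list. Pcdha3 had a fold of 2.64 in Dek_cKO 1 and of 2.82 in Dek_fl 1. Pcdha5 was called in Dek_cKO 1 alone (fold 2.496) and Pcdha6 in Dek_cKO 2 alone (fold 3.93). The lower end of Pcdha6 lies close to that of the fusion gene model Gm38666, which reaches from alpha to gamma, so its peak cannot be assigned to either.

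Of the beta genes, 3, 5 and 0 were called in Dek_cKO 1, 2 and 3, against 2, 4 and 1 in Dek_fl 1, 2 and 3. Pcdhb1, the first gene of the array and set apart from the rest, accounted for most of the strong values. The region, from 37264386 to 37266051, had folds of 6.63 and 8.36 in Dek_cKO 1 and 2 and no peak in Dek_cKO 3, against 8.01, 7.30 and 7.98 in Dek_fl 1, 2 and 3. Its percentiles were 71.7 and 83.2 in Dek_cKO 1 and 2, against 93.9, 87.3 and 51.7 in Dek_fl 1, 2 and 3. Within replicates 1 and 2 both Dek_fl percentiles were above both Dek_cKO percentiles, the opposite of Pcdhgb6. An order of 2 against 2 libraries cannot be tested.

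Leaving out Pcdhb1, the other 21 beta genes were called in 10 of 126 combinations of gene and library (7.94%). Pcdhb16 had folds of 3.67 and 5.18 in Dek_cKO 1 and 2, against 3.32 and 4.64 in Dek_fl 1 and 2. Pcdhb17 was called in Dek_cKO 1 and 2 alone (folds 4.55 and 3.04). Single calls were made at Pcdhb3 (fold 3.93) and Pcdhb13 (fold 3.57) in Dek_cKO 2 and at Pcdhb4 (fold 2.93) and Pcdhb12 (fold 2.08) in Dek_fl 2. The other 15 beta genes had no peak at either end in any library.

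Members called more often under one label were counted against the background. Of the 58 members, 18 were called in more Dek_cKO than Dek_fl libraries, 3 in fewer and 8 in equal numbers. Calls in at least 2 more Dek_cKO libraries were found for 6 members (10.3%), namely Pcdha8, Pcdhb17, Pcdhgb4, Pcdhgb5, Pcdhga11 and Pcdhga12, against 0.592% of protein-coding genes. The reverse held for 0 members, against 0.0786% of protein-coding genes. Only genes called in 1 to 5 libraries can differ in this way, which were 46.6% of members and 21.0% of protein-coding genes. Alpha and gamma members also count 1 end where other genes count both, so the background is unlike the members. Within replicates 1 and 2, 5 members (8.62%) were called in both Dek_cKO and in neither Dek_fl library, against 0.416%, and 0 members the other way, against 0.0601%. No region of the interval was called in all 3 libraries of a group and in none of the other, against 0.104% (Dek_cKO) and 0.00355% (Dek_fl) of the 84592 regions of the genome.

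Counted over regions, whose background is higher, the contrast was smaller. In the interval 7 of 44 regions (15.9%) were called in at least 2 more Dek_cKO libraries, against 4.02% over the genome, and 0 in at least 2 more Dek_fl libraries, against 0.362%. Within replicates 1 and 2 alone, 6 regions (13.6%) were called in both Dek_cKO and neither Dek_fl library, against 3.02%. The count of 7 regions was 15 without Dek_fl 2, 1 without Dek_cKO 1 and 0 without Dek_cKO 2. Of the 4 lists in replicates 1 and 2, Dek_fl 1 had the fewest called members, 9, and was also the shortest.

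List length was therefore set equal. Cutting the lists of replicates 1 and 2 to the 52434 peaks of lowest p, an alternative chosen after seeing the data, left 12 and 13 called members in Dek_cKO 1 and 2, against 9 and 9 in Dek_fl 1 and 2. At that length 64.1% and 63.7% of protein-coding genes were called in Dek_cKO 1 and 2, against 63.6% and 64.3% in Dek_fl 1 and 2. The alternate gamma genes were then 6 and 6 in Dek_cKO 1 and 2, against 2 and 3 in Dek_fl 1 and 2, so the counts stayed higher under the Dek_cKO label (exact p = 0.33, the smallest that 2 against 2 libraries allow). At this length 2 of the 58 members, Pcdhgb5 and Pcdhgb8, were called in both Dek_cKO and neither Dek_fl library. The same held for 68 of 21627 protein-coding genes (0.314%). The reverse held for 0 members, against 0.31% of protein-coding genes. Pcdhgb8 is a pseudogene and so lies outside that background, which also counts both ends of a gene where these 2 members count 1. Cut to the same length by fold, called members numbered 16 and 14 in Dek_cKO 1 and 2, against 9 and 12 in Dek_fl 1 and 2.

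With all 6 lists cut to the 23809 peaks of the shortest, the difference was no longer there. Called members were 2, 4 and 2 in Dek_cKO 1, 2 and 3, against 4, 4 and 3 in Dek_fl 1, 2 and 3. They were Pcdhgc3 and Pcdhgc4 in all 6 libraries, Pcdhb1 in 1 Dek_cKO and 3 Dek_fl libraries, and Pcdhac2 in 1 Dek_cKO and 2 Dek_fl libraries. No alternate gene was among the peaks of that length under either label. At a −log10 q of at least 10, called members were 11, 11 and 1 in Dek_cKO libraries, against 4, 9 and 2 in Dek_fl libraries, and alternate gamma genes 5, 5 and 0 in Dek_cKO libraries, against 0, 3 and 0 in Dek_fl libraries.

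**Figure D5:**
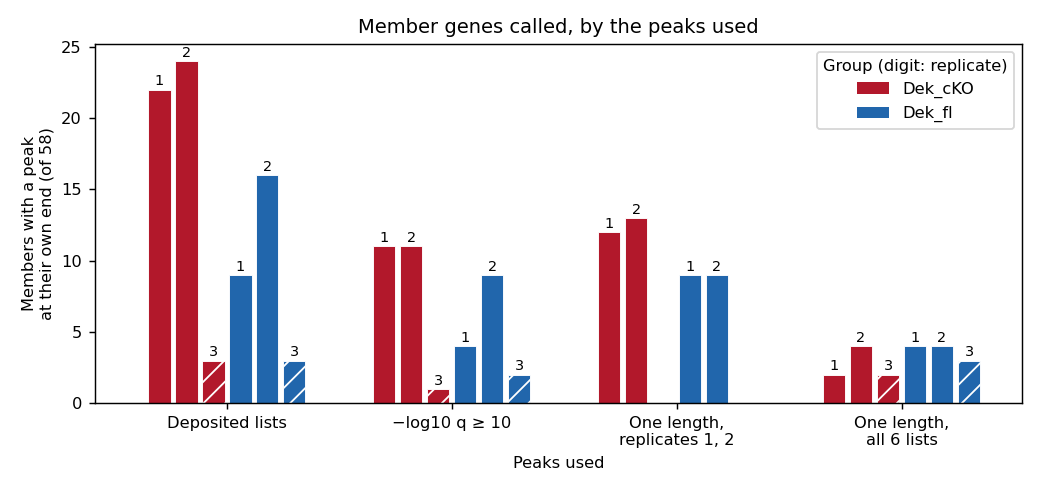
Called members under 4 choices of peaks. Bars count members, of 58, with a peak at their own end in each library, the digit is the replicate number, hatched bars are replicate 3, and the third choice has replicates 1 and 2 only. From left to right the bars of Dek_cKO 1 and 2 are 22 and 24, 11 and 11, 12 and 13, and 2 and 4, beside 9 and 16, 4 and 9, 9 and 9, and 4 and 4 for Dek_fl 1 and 2.

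Regions that are no member's own end included some of the strongest of the interval. A region between alpha and beta, from 37217423 to 37218490, lay 29.4 kb above the alpha genes and 46.7 kb below Pcdhb1. Its folds were 10.1, 11.6 and 9.67 in Dek_cKO 1, 2 and 3, against 7.30 and 9.92 in Dek_fl 1 and 2 and no peak in Dek_fl 3. The percentiles were 96.9, 97.9 and 64.6 in Dek_cKO libraries, against 89.3 and 99.1 in Dek_fl 1 and 2. It had the second highest mean percentile of fold in the interval, with summits within 4 bp of each other in the 5 libraries.

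Enhancers of the alpha genes and of the beta and gamma genes are known downstream of each array, from work on mouse neurons. Their coordinates are not in the sources used here, so no region was matched to one. At the upper end that the gamma genes share, where the constant exons end, a region from 37841104 to 37842136 had folds of 5.18 and 5.03 in Dek_cKO 1 and 2, against 2.91 and 2.94 in Dek_fl 1 and 2. Its percentiles were 52.0 and 46.3 in Dek_cKO 1 and 2, against 11.8 and 16.9 in Dek_fl 1 and 2, and no peak was called in replicate 3. Within replicates 1 and 2 the groups did not overlap there, which 2 against 2 libraries cannot test. The same held at other regions, among them 37835240 to 37836278 inside gamma. Its percentiles were 22.1 and 29.6 in Dek_cKO 1 and 2, against 5.54 and 20.1 in Dek_fl 1 and 2. Pcdhb1 went the other way, and the share of such regions over the genome was not counted. Next to the shared gamma end, a region from 37842582 to 37843369 was called in Dek_cKO 1 and 2 alone (folds 2.56 and 2.83). It also lies at an end of Diaph1. The upper end shared by the alpha genes had no peak in any library.

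Inside gamma, a region from 37835240 to 37836278 had folds of 3.52 and 4.09 in Dek_cKO 1 and 2, against 2.65 and 3.11 in Dek_fl 1 and 2, and a region from 37800755 to 37801170 was called in Dek_cKO 2 alone (fold 5.19). Between Taf7 and gamma, 6.02 kb below Pcdhga1, a region from 37655116 to 37656225 had folds of 6.90 and 4.47 in Dek_cKO 1 and 2, against 3.81 and 3.17 in Dek_fl 1 and 2. None of these 3 regions was called in either replicate 3 library.

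Other genes of the interval had peaks of their own. Taf7, which encodes a subunit of the general transcription factor TFIID and sits between beta and gamma, had the strongest region of the interval at its upper end (37643364 to 37644875). Its folds were 10.5, 12.2 and 13.1 in Dek_cKO 1, 2 and 3, against 9.57, 9.10 and 12.2 in Dek_fl 1, 2 and 3. The percentiles were 97.9, 98.9 and 88.2 in Dek_cKO libraries, against 98.9, 97.5 and 87.2 in Dek_fl libraries, so this gene stayed near the top of every list, and its rank score differed by -0.0285 (SE 0.363, adjusted p = 1.0 by limma).

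Slc25a2, which encodes a mitochondrial carrier of basic amino acids, had no peak in a Dek_cKO library, against weak peaks in Dek_fl 1 (fold 2.49) and Dek_fl 2 (fold 2.67), at different places. Diaph1, which encodes a formin that nucleates actin filaments and follows the gamma genes, had 5 regions in its body. The 2 called in all 6 libraries had folds from 4.41 to 6.58 in Dek_cKO libraries, against 3.07 to 7.03 in Dek_fl libraries, and rank score differences of 0.0830 (SE 0.398) and 0.0429 (SE 0.378), with adjusted p-values of 1.0 by limma. Among the 16 other genes of the interval, 6, 6 and 2 had a peak at an end in Dek_cKO libraries, against 6, 9 and 2 in Dek_fl libraries (difference -6.25 percentage points, exact p = 1.0). Of the 9 called at least once, 7 have an end within 1 kb of a region at a protocadherin end. They are the 3 fusion gene models, 3 pseudogenes and Diaph1, so many of these calls repeat protocadherin peaks and the counts are no independent comparison. Diaph1 was called in all 6 libraries, but the region at its lower end in Dek_cKO 1 and 2 alone. Its other calls lay at its upper end, at 37935622, beyond the interval. The 2 calls in each replicate 3 list were at Taf7 and Diaph1.

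Genes that act on the protocadherin clusters elsewhere were examined next. The list of 22 holds Ctcf, the architectural protein that binds protocadherin promoters and enhancers, subunits and regulators of cohesin (among them Smc1a, Smc3, Stag2 and Wapl), and repressors such as Smchd1, Setdb1, Trim28 and Rest. Of these, 17, 17 and 15 had a called end in Dek_cKO 1, 2 and 3 (77.3%, 77.3% and 68.2%), against 17, 17 and 16 in Dek_fl 1, 2 and 3 (77.3%, 77.3% and 72.7%), a difference of -1.52 percentage points (exact p = 1.0). Over all protein-coding genes the shares were 67.4%, 67.6% and 52.0% in Dek_cKO libraries and 63.6%, 67.7% and 51.4% in Dek_fl libraries, so nothing particular to the list is read from its counts. Ctcf, Smc1a, Smc3, Smchd1, Setdb1 and Trim28 were among the 15 called in all 6 libraries. Wapl, which releases cohesin from DNA, was called in 2 libraries of each group. Ehmt2, a histone H3 lysine methyltransferase, was called in 2 Dek_cKO and 3 Dek_fl libraries. The 5 with no call were Rad21, Stag1, Nipbl, Dnmt1 and Dnmt3a; the table gives outermost gene ends, so a peak at another promoter of a gene is not counted.

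Related adhesion genes were compared in the same way. Of 12 non-clustered protocadherins, which are single genes outside the clusters, 9, 8 and 5 had a called end in Dek_cKO libraries, against 7, 7 and 6 in Dek_fl libraries (difference 5.56 percentage points, exact p = 0.80). Their shares of 41.7% to 75% lie around the 51.4% to 67.7% of all protein-coding genes. Pcdh1, Pcdh7, Pcdh10, Pcdh17 and Pcdh19 were called in all 6 libraries, and Pcdh20 in 2 Dek_cKO libraries and 0 Dek_fl libraries. Of 19 cadherins, 8, 9 and 5 had a called end in Dek_cKO libraries, against 7, 9 and 2 in Dek_fl libraries (difference 7.02 points, exact p = 0.70), with Cdh2 and Cdh24 called in all 6. The cadherin shares, 10.5% to 47.4%, lie below that of all protein-coding genes in each library.

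Marker genes of cell types were looked at in the same way, beside the 51.4% to 67.7% of protein-coding genes called per library. Ends of the 8 stem cell markers were called in 7, 7 and 5 cases in Dek_cKO libraries, against 7, 8 and 3 in Dek_fl libraries (37.5% to 100% of the list), with Kit, Meis1 and Tek called in all 6 libraries and Ly6a, which encodes Sca-1, in 1 Dek_fl library alone. The 6 neuron and glia markers were called in 5, 5 and 2 cases in Dek_cKO libraries, against 4, 5 and 2 in Dek_fl libraries (33.3% to 83.3%). Endothelial markers, 4 in all, were called in 3, 3 and 1 cases in Dek_cKO libraries, against 3, 3 and 2 in Dek_fl libraries, and the 4 stromal markers in 3, 3 and 2 cases in Dek_cKO libraries, against 2, 3 and 1 in Dek_fl libraries. The 4 T cell markers had 1, 2 and 1 calls in Dek_cKO libraries, against 1, 1 and 0 in Dek_fl libraries, a share below the background in each library. The 3 B cell markers had 2, 2 and 0 calls in Dek_cKO libraries, against 0, 2 and 0 in Dek_fl libraries, and the 3 erythroid markers had 2 in each library. Ends of neuron and glia markers were thus called in every library, and the lists are too short to place a cell type by them. The part of other cells in the protocadherin peaks was not tested.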

How the data were processed

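The deposited files are 1 narrowPeak list for each of 6 ATAC-seq libraries, with peaks called for each library on its own. The tools were Bowtie2, Picard and MACS2 and the build mm10, per the submitters' processing notes; versions, settings and any Tn5 shift are not stated in what was used here. A deposited row gives an interval, a score, a fold (the ratio of the summit to the local background), a −log10 p, a −log10 q and the summit's offset, all of them the authors' values. The deposited scores equalled 10 times the −log10 q in replicates 1 and 2 and 10 times the −log10 p in replicate 3, in 100% of peaks. No reads were given, so depth is unknown, no interval can be put on a call, and a region without a call may still be open. Columns of other samples numbered 0.

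Peaks of chromosomes 1 to 19 and X that shared at least 1 bp were merged into 84592 regions. The gene table gives no strand, exons or UTRs, so the planned start sites were replaced by annotated ends with a 1 kb window, and ends within 2 kb of each other among alpha or gamma members counted as shared. Groups were compared by exact two-sided permutation of the 20 assignments of libraries. Rank scores were compared by limma 3.58.1 in R 4.3.3 with Benjamini-Hochberg adjustment over 19683 regions. The limma code was also run on simulated scores, with a spread taken from replicates 1 and 2 and no replicate 3 batch. That run does not test the fit under the batch present in these data. Python 3.11.15 with pandas 2.3.3 and NumPy 2.4.6 was used for the rest. The replicate numbers come from the titles. Deviations of same-numbered libraries from their group means correlated at 0.272, 0.522 and 0.740, all above 0.1, and the numbers were taken to pair the libraries. The crossed pairs also correlated, Dek_cKO 1 with Dek_fl 2 at 0.573 and Dek_cKO 2 with Dek_fl 1 at 0.307. The check cannot tell a pairing within replicates 1 and 2 from the separate processing of replicate 3, so the replicate block rests on the titles alone. Alternatives were equal-length lists, a −log10 q of at least 10, other windows, left-out libraries, single batches, a replicate block and a batch term. The members, lists and tests were chosen with earlier results of these data known. Named were the members with a peak at an end, the regions strongest by percentile or by p, those called in 2 more libraries of a group or in all of a group, and neighbours called in all 6 libraries; others were named after their values were seen. No sequence was used.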

Additional observations from a re-analysis of the deposited data

How the results depend on the processing

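Depth is unknown, the lists of replicate 3 are short and differently thresholded, and in the shortest common length no alternate gene was called under either label. No test of the groups within the interval passed its threshold under the alternatives run, which 3 against 3 libraries cannot do by the exact test.

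In equal-length lists, differences (Dek_cKO minus Dek_fl) were -1 for interval peaks, -0.420 per 10000 peaks, -1221 bp for covered length, -0.333 for alpha, -0.667 for beta, 0 for gamma and for the rest, -1 for called members and 0 for alternate gamma genes. Regions called in at least 2 more libraries were then 0 (Dek_cKO) and 2 (Dek_fl), and the list differences were 6.06 points for regulators, -5.56 for non-clustered protocadherins, 0 for cadherins and 0 for other genes of the interval. At a −log10 q of at least 10 they were 0 for beta peaks, 1.52 points for regulators and 10.4 points for other genes of the interval, with 2 regions in at least 2 more Dek_cKO libraries. Within replicate 3 they were 0 for interval, gamma and remaining peaks, called members and alternate gamma genes, -0.415 per 10000 peaks, -700 bp and -1 for beta. Counting shared ends gave 0 for alternate gamma genes, and a 2 kb window gave 0 points for regulators and for non-clustered protocadherins.

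Leaving out 1 library gave -0.833 to 1.67 for beta peaks, -0.5 to 3 for the rest, 0 to 6 regions called in Dek_cKO alone, 0 to 15 and 0 to 2 regions in at least 2 more Dek_cKO and Dek_fl libraries, and rank score differences from -0.258 to 0.205 at Taf7, -0.405 to -0.108 at Pcdhgc3, -0.466 to 0.288 at Pcdhgc4, -0.0791 to 0.436 above the lower end of Pcdhgc5 and -0.267 to 0.452 and -0.271 to 0.308 in Diaph1. Ranked by −log10 p, Pcdhgc4 gave 0.00884 and the region above the lower end of Pcdhgc5 -0.00402. Percentile differences turned to -0.145 (by p) and -0.161 (equal length) at Taf7, -6.04 at Pcdhgc4 and -1.49 at the second Diaph1 region (equal length). The difference at Pcdhgc3 kept its direction and was -13.4 in equal-length lists (exact p = 0.20), against -4.69 in the deposited lists. For these changes the cause was not tested beyond what each alternative removes by construction.

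With the replicate block the difference in interval peaks was 7.33 (sign-flip p = 0.50, exact, where 0.25 is the smallest possible). The replicate block, whose pairing comes from the titles alone, changed no call in the interval. It gave 1 higher and 0 lower regions over the genome by limma, and a batch term gave 0 and 0. Of 176 values of the main comparisons under these alternatives, 134 kept their direction (counts stayed within 1.5 times), 26 moved and 16 reversed. Of 65 values for single regions, 48 kept it and 17 reversed. Some of these could not change, since the replicate block and the batch term leave a difference of means as it was in this balanced design. Counts of 0 that stayed at 0 were also taken as kept, so these tallies do not measure stability. The exact tests cannot cross the threshold, so their side of it says nothing of stability.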
